A study of Homo sapiens with 6 samples.

Results

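Glycolysis converts glucose to pyruvate in the cytosol, and lactate dehydrogenase then turns pyruvate into lactate, while the mitochondrial pyruvate carrier hands it to the mitochondria instead. Many of these enzymes, together with genes of pH control, mitophagy, collagen modification and stress, are targets of the hypoxia-inducible factors (HIF), dimers of an oxygen-sensitive alpha subunit and ARNT that bind short core motifs near their target genes. Raised glycolysis in the presence of oxygen is a known feature of many carcinoma cells.

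The genes described here were a list of 36 human gene symbols in 2 groups: 24 for the enzymes from hexokinase to lactate dehydrogenase, the 4 bifunctional PFKFB enzymes and the pyruvate carriers, and 12 for other genes of the hypoxia response. The rule names genes by function and uses no measured value, but it was written with earlier results of these data known. Of the 27009 genes in the table, 35 were members. PKLR, the liver and red cell pyruvate kinase, is not analysed here. The question was which of them differed between cells with and without a nuclear form of PD-L1.

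RNA sequencing was done on cells labelled Hep3B, a human hepatocellular carcinoma line, in 6 libraries. All of them carried a knockout of the cells' own PD-L1 gene. The 3 control libraries came from knockout cells given the empty lentiviral vector (vector), and the other 3 from knockout cells given nPD-L1, a PD-L1 with mutated residues that is compartmentalized in the nucleus and driven by a CMV promoter (nPD-L1). Both kinds of cell were drug-selected stable lines. No low-oxygen culture is named for these libraries, and the study describes the 3 libraries of a group as independent samples without saying whether they came from separate cultures, so the p-values measure only the spread between these libraries.

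The values were reads per gene divided by a size factor per library, called scaled reads below, and they summed to 18082164 to 19682128 per library. Whole reads on genes, recovered in 4 libraries, were 17427519 to 22253295. The labels were checked first. CD274, the PD-L1 gene, had 28.3, 38.4 and 47.8 scaled reads in the libraries labelled vector and 16.8, 19.2 and 30.9 in those labelled nPD-L1 (log2 fold change -0.76 ± 0.34 SE, limma adjusted p = 0.338). The added gene was therefore not seen as a higher CD274 level, and every direction below rests on the labels. The hepatocyte markers ALB, APOA1, APOB, TTR and TF were at 0 to 2.89 scaled reads in every library and SERPINA1 at 7.91 to 41.4, while FGB was at 962 to 1540. The data therefore go against the Hep3B label in these markers, and no other name is given to the cells. The 3 endothelial markers in the table stayed at or below 4.20 each, and of the leukocyte markers PTPRC reached 2.52 and CD14 14.3. Of 4 fibroblast markers in the table DCN and PDGFRB stayed at or below 8.31, LUM was at 99.9 to 182 in the 6 libraries, and COL1A1, a collagen chain, had 49.9 to 82.8 in the vector libraries, against 445 to 487 in those labelled nPD-L1 (adjusted p = 7.99e-06). The fibroblast markers summed to 170 to 245 in the vector libraries, against 586 to 655 in those labelled nPD-L1. COL1A1 carried this rise, and LUM was not called (log2 fold change 0.10 ± 0.24 SE, limma adjusted p = 0.886). The part of any of these markers in the results below was not tested. In bulk RNA, fewer cells of a kind and less RNA per cell cannot be told apart.

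Of the 36 members, 33 reached 10 scaled reads in at least 3 libraries and were tested, 22 glycolysis genes and 11 hypoxia genes. PFKFB3, ENO2 and NDRG1 rose in the libraries labelled nPD-L1, and none fell. Calls were made in limma where the p-value, adjusted by the Benjamini-Hochberg method, was under 0.05, with the model fitted on log2(scaled reads + 1) of all 15076 genes that passed the same filter. The 3 calls were 9.09% of the members tested, beside 4.96% of all genes tested, and 4.04% of all genes were called higher and 0.922% lower. At an unadjusted p under 0.05, 4 members were higher and 0 lower, where 9.53% of all genes were higher and 4.71% lower. No member was called lower by edgeR or DESeq2 on the 4 libraries with recovered reads either.

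**Figure D1:**
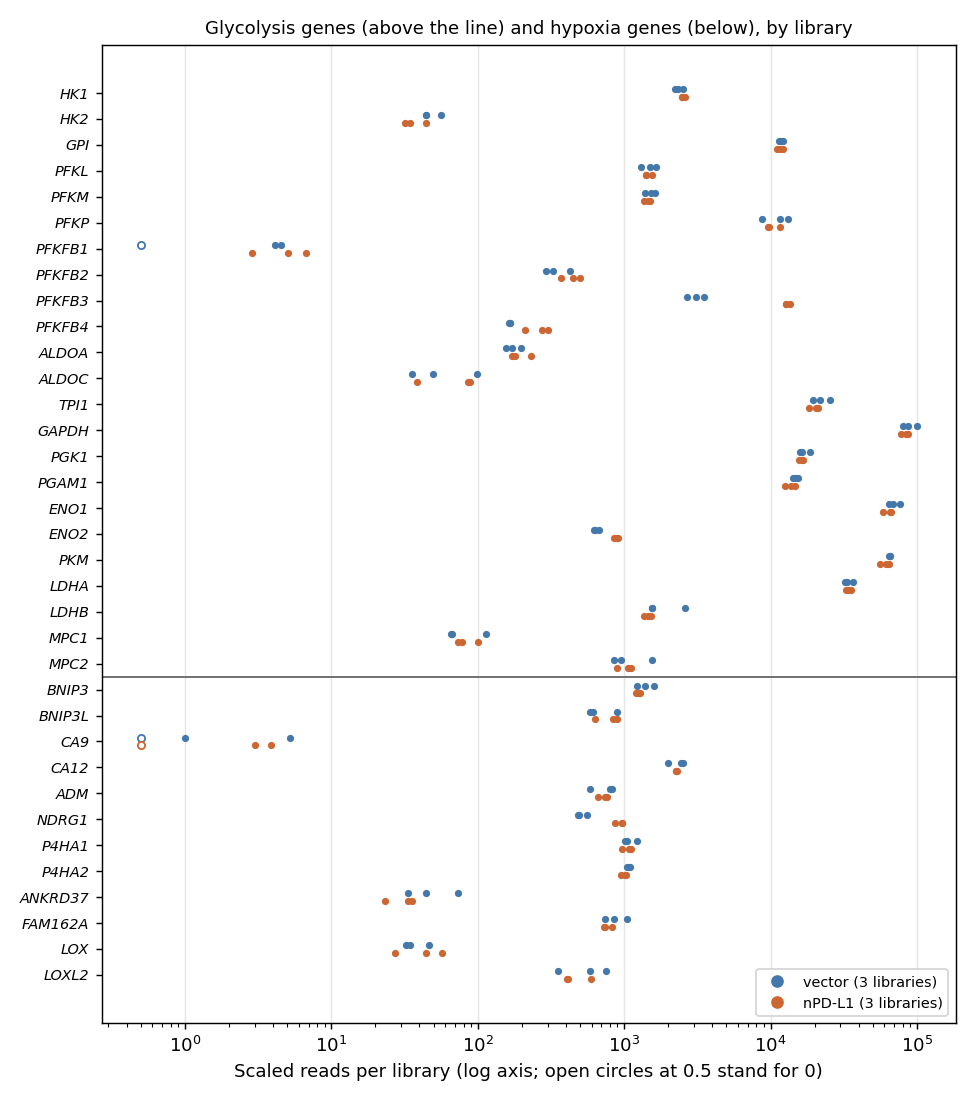
Scaled reads (horizontal log axis) of the 35 members in the table, 1 row per gene, with each point 1 library, blue for vector and orange for nPD-L1, and open circles at 0.5 standing for 0. The blue and orange points are apart most widely for PFKFB3 and NDRG1, and for most rows they lie over each other.

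The windows before the start sites of 4 members are shown because they carry the short HIF core motif, ACGTG or GCGTG, in genes that moved and in genes that did not. The sequences are the 250 bases before a RefSeq start on GRCh38.p14, 5′ to 3′, with the core motif in capitals on either strand (CACGT and CACGC are its reverse), and CACGTG reads as the core on both strands.
PFKFB3 chr10:6202682-6202931 (+): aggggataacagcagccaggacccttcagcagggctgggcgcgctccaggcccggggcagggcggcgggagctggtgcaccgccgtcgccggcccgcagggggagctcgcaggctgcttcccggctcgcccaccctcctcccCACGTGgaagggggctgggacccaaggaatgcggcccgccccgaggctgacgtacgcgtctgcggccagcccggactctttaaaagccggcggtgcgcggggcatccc
ENO2 chr12:6914330-6914579 (+): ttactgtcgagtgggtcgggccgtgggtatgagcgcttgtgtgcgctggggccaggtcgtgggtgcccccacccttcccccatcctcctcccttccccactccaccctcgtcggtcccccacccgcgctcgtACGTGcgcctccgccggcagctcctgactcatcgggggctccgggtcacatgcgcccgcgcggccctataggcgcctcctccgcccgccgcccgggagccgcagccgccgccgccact
LDHA chr11:18394313-18394562 (+): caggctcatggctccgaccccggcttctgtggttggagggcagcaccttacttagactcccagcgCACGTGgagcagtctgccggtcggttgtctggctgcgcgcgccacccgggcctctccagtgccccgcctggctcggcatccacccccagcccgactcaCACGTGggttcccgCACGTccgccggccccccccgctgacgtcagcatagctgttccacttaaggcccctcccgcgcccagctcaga
PGK1 chrX:78103998-78104247 (+): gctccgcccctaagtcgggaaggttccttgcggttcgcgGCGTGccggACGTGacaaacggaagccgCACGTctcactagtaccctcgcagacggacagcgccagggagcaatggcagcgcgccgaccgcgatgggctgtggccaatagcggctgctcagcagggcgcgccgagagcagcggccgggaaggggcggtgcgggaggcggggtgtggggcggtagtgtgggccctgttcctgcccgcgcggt

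In the PFKFB3 window the 1 core is a CACGTG that begins 108 bases before the start, and the window at the other listed PFKFB3 start, chr10:6144671-6144920, holds 1 core that begins 168 bases before it. The ENO2 window has 1 core, 118 bases before its start. The LDHA and PGK1 windows shown have 3 cores each, beginning 185, 87 and 73 bases before the start of LDHA and 211, 202 and 183 before that of PGK1. The window at the other listed LDHA start, chr11:18396101-18396350, holds 1 core that begins 123 bases before it. PFKFB3 and ENO2 rose, and LDHA and PGK1 had log2 fold changes of 0.00 ± 0.11 and -0.05 ± 0.11 (SE). Counted over windows of 300 bases (250 before and 50 after the start), on both strands, ACGTG or GCGTG stood in 39 of 57 windows of 31 matched members (68.4%), in 60.5% of the windows of the genes tested and in 48.4% of all 35116 windows. ACGTG alone stood in 42.1%, 25.1% and 21.4% of these, and CACGTG, which overlaps it, in 14.0%, 9.21% and 7.26%. By group the core stood in 29 of 46 glycolysis windows (63.0%, 22 genes) and in 10 of 11 hypoxia windows (90.9%, 9 genes). Some genes have several windows, which can overlap, so windows are not independent. NDRG1, which rose, had no matched window, nor had BNIP3L, LOXL2 and PFKFB2, so these genes are not in the counts. These matches describe letters only.

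PFKFB3 had the largest log2 fold change of the 33 members tested. It makes the enzyme that sets the level of fructose 2,6-bisphosphate, the main activator of phosphofructokinase, and it has the highest kinase to phosphatase ratio of its family. The gene (ENSG00000170525) spans bases 6144934 to 6254644 of chromosome 10 (GRCh38, + strand). Scaled reads came to 3503, 2686 and 3105 in the vector libraries, against 13639, 12770 and 12669 in those labelled nPD-L1. The lowest nPD-L1 library thus stood well above the highest vector library. The log2 fold change was 2.08 ± 0.11 (SE; 95% interval 1.82 to 2.33; adjusted p = 2.27e-06), or 4.20-fold between the group means. It was called under all 17 alternative settings, with log2 fold changes of 1.98 to 2.19 and adjusted p from 3.33e-26 to 0.000204. None of its exon bases are shared with another gene.

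The other PFKFB genes were much lower. PFKFB4, a second enzyme of the same kind known as a hypoxia target, had 165, 166 and 167 scaled reads in the vector libraries, against 210, 273 and 302 in those labelled nPD-L1. Its groups did not overlap, but it narrowly missed the call (log2 fold change 0.64 ± 0.16, adjusted p = 0.0531). Over the 17 alternatives its adjusted p ran from 0.0164 to 0.699, and it was called in 5 of them, among them those without vector replicate 2 (0.0322) and without nPD-L1 replicate 1 (0.0365). PFKFB2 had 327, 427 and 292 against 372, 499 and 446 (log2 fold change 0.34 ± 0.17, adjusted p = 0.413), with overlapping groups. Without vector replicate 2 its adjusted p was 0.0484, and over the alternatives it ran from 0.0484 to 0.9998. PFKFB1, the liver and muscle form, stayed at 0 to 6.72 scaled reads and was not tested.

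Per kilobase of exon the order of the family was PFKFB3, PFKFB2, PFKFB4, PFKFB1 in both groups. PFKFB3 was at 507 and 2131 scaled reads per kilobase (means of 3 libraries, vector and nPD-L1). PFKFB2 was at 34.2 and 43.0, and PFKFB4 at 27.2 and 42.9, so these neighbours overlapped in the libraries labelled nPD-L1. In the vector libraries PFKFB2 lay at 28.6 to 41.9 and PFKFB4 at 26.9 to 27.4. The level of PFKFB3 was 18.5 times that of PFKFB4 in the vector libraries, against 50.3 times in those labelled nPD-L1, a change of the log2 ratio PFKFB4/PFKFB3 by -1.44, with no overlap between groups. An exact permutation test of 3 against 3 libraries cannot go below p = 0.1, which this ratio had (2-sided, adjusted p = 0.367 over 11 ratios).

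**Figure D2:**
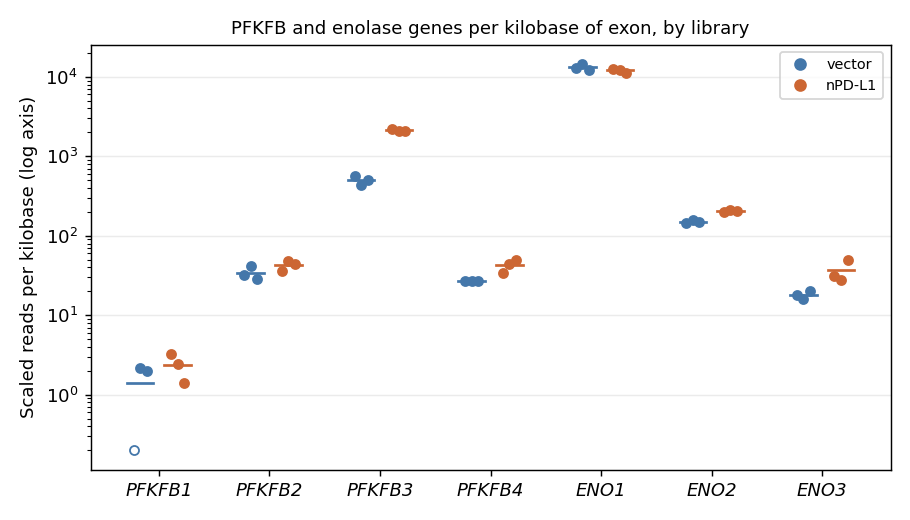
Scaled reads per kilobase of exon (vertical log axis) of the PFKFB and enolase genes, with each point 1 library, horizontal bars the group means, blue vector, orange nPD-L1 and the open circle standing for 0. PFKFB3 moves from a mean of 507 to 2131, ENO2 from 150 to 205, and ENO1 stays the highest at 13261 and 12060.

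ENO2, the neuronal enolase that converts 2-phosphoglycerate to phosphoenolpyruvate, was the other glycolysis gene that rose. It (ENSG00000111674) spans bases 6913745 to 6923698 of chromosome 12 (+ strand), and none of its exon bases are shared. The vector libraries had 622, 670 and 636 scaled reads, and those labelled nPD-L1 had 849, 905 and 876. All nPD-L1 values lay above all vector values, with a small spread in each group. The log2 fold change was 0.45 ± 0.10 (SE; adjusted p = 0.0260), or 1.36-fold. The size held in every alternative, 0.40 to 0.48, but the call did not: ENO2 was called in 8 of 17, with adjusted p from 0.00582 to 0.853. It was lost without vector replicate 1 (0.145), vector replicate 3 (0.0514), nPD-L1 replicate 1 (0.0804), nPD-L1 replicate 2 (0.162) or nPD-L1 replicate 3 (0.119).

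ENO1, the main enolase of most tissues, had 69041, 76697 and 64157 scaled reads in the vector libraries. Those labelled nPD-L1 had 66736, 65273 and 58873, and the groups overlapped (log2 fold change -0.14 ± 0.12, adjusted p = 0.680). Per kilobase ENO1 was 88.2 times the level of ENO2 in the vector libraries, against 58.8 times in those labelled nPD-L1. The log2 ratio ENO2/ENO1 was higher by 0.58 in the libraries labelled nPD-L1, with no overlap (exact permutation p = 0.1, adjusted 0.367). ENO2 thus stayed a minor enolase transcript in all 6 libraries. The ratios ENO2/ENO1 and PFKFB4/PFKFB3 each hold a called gene, so their change is no result separate from that call. ENO3, the muscle enolase and no member, had 76.7, 68.9 and 86.3 against 135, 120 and 216 (log2 fold change 0.97 ± 0.23, adjusted p = 0.0391, range over alternatives 0.00403 to 0.173). It was not called without vector replicate 1 (0.141), nPD-L1 replicate 1 (0.107) or nPD-L1 replicate 3 (0.173). On the 4 libraries with recovered reads limma, edgeR and DESeq2 did not call ENO3 either.

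NDRG1, a stress-response gene known for its strong induction in hypoxia, was the hypoxia gene that rose. It (ENSG00000104419) spans bases 133237171 to 133302022 of chromosome 8 (- strand), and none of its exon bases are shared. The vector libraries had 487, 489 and 554 scaled reads and those labelled nPD-L1 had 970, 973 and 860. The groups were far apart. The log2 fold change was 0.87 ± 0.11 (SE; adjusted p = 0.000847), or 1.83-fold. It was called in 16 of 17 alternatives, with adjusted p from 1.30e-05 to 0.0508, the exception being limma on the 4 libraries with recovered reads.

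Along the pathway, no enzyme of a step was called other than ENO2. Hexokinase traps glucose in the cell as glucose 6-phosphate. HK1, the form of most tissues, had a log2 fold change of 0.11 ± 0.09, and HK2, the inducible form, had 44.4, 56.5 and 44.7 scaled reads in the vector libraries, against 31.9, 34.4 and 44.4 in those labelled nPD-L1. The HK2 groups were separated by 0.037 scaled reads, and it was not called (-0.39 ± 0.26, adjusted p = 0.570). Per kilobase HK1 was 46.9 times HK2 in the vector libraries, against 66.7 times in those labelled nPD-L1 (log2 ratio HK2/HK1 changed by -0.51, no overlap, exact permutation p = 0.1, adjusted 0.367). With a pseudocount of 10 the change of this ratio was -0.27. GPI, the isomerase of the next step, had a log2 fold change of -0.02 ± 0.10.

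Phosphofructokinase commits the sugar to glycolysis and answers to the product of the PFKFB enzymes. Its 3 genes had log2 fold changes of -0.03 ± 0.11 (PFKL, liver form), -0.07 ± 0.10 (PFKM, muscle form) and -0.10 ± 0.15 (PFKP, platelet form). Per kilobase PFKP led in every library, at a mean of 2312 in the vector libraries, against 2131 in those labelled nPD-L1, and the mean PFKFB3 level per kilobase in the latter, 2131, was close to it. Aldolase splits the sugar into triose phosphates. ALDOA had only 156 to 231 scaled reads, and 53.5% of its exon bases are shared with other annotated genes, so its value is uncertain (0.15 ± 0.17). ALDOC had 49.5, 98.3 and 35.3 against 38.7, 89.0 and 85.9 (0.26 ± 0.41), a spread within groups as wide as between them.

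The lower part of the pathway holds the most abundant members. GAPDH, which makes the first reducing equivalents of the pathway, was the highest per kilobase, with 87327, 99686 and 79741 scaled reads in the vector libraries, against 84762, 87578 and 77673 in those labelled nPD-L1. The groups overlapped (-0.09 ± 0.13, adjusted p = 0.800). The triose phosphate isomerase TPI1 (-0.15 ± 0.13), the first ATP-making kinase PGK1 (-0.05 ± 0.11) and the mutase PGAM1 (-0.11 ± 0.10) were not called. PKM, the pyruvate kinase of most tissues and tumours, had 65675, 65407 and 64532 against 64121, 61662 and 56140, so every nPD-L1 library lay below every vector library, by a small margin (-0.11 ± 0.11, adjusted p = 0.726).

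LDHA, which makes lactate from pyruvate, had 33558, 36789 and 32084 scaled reads in the vector libraries, against 35211, 34327 and 32835 in those labelled nPD-L1. Its log2 fold change was 0.00 ± 0.11, with a 95% interval of -0.24 to 0.24. LDHB, whose product favours the reverse reaction, had 1558, 2590 and 1563 against 1448, 1369 and 1533, again with no overlap and no call (-0.35 ± 0.18, adjusted p = 0.428). Here vector replicate 2 stood far above the other vector libraries, and without it the log2 fold change was -0.11. 33.4% of the LDHB exon bases are shared with other genes. The carrier subunits MPC1 (0.07 ± 0.26) and MPC2 (-0.09 ± 0.20) were not called. Together the 23 glycolysis genes took 1.86%, 1.90% and 1.79% of the scaled reads of the vector libraries and 1.87%, 1.84% and 1.74% of those labelled nPD-L1.

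Among the other hypoxia genes, the carbonic anhydrases, which keep cell pH as acid is made, were not called. CA9, a widely used marker of hypoxia, stayed at 0 to 5.20 scaled reads in every library and was not tested, and 38.5% of its exon bases are shared with an antisense gene. CA12 was at 2321 ± 291 in the vector libraries, against 2277 ± 28.2 in those labelled nPD-L1 (SD, n = 3; log2 fold change -0.02 ± 0.11 SE). The mitophagy receptors BNIP3 (-0.16 ± 0.12) and BNIP3L (0.20 ± 0.18) and the vasoactive peptide gene ADM (-0.02 ± 0.14) were not called. FAM162A, a mitochondrial protein gene, had -0.19 ± 0.13.

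The collagen-modifying genes were not called. The prolyl 4-hydroxylase gene P4HA2 had 1048, 1075 and 1089 scaled reads in the vector libraries, against 1025, 951 and 1020 in those labelled nPD-L1, with no overlap (-0.10 ± 0.09, adjusted p = 0.701), and its paralog P4HA1 had -0.05 ± 0.11. The lysyl oxidase genes LOX (0.14 ± 0.32) and LOXL2 (-0.21 ± 0.25) varied widely within groups, LOXL2 from 355 to 754 in the vector libraries. ANKRD37, an ankyrin repeat gene, had 44.4, 73.4 and 33.3 against 33.6, 35.4 and 23.2, the lowest estimate among the members and not called (-0.64 ± 0.33, adjusted p = 0.446), and 35.2% of its exon bases are shared. The 12 hypoxia genes summed to 0.0488% to 0.0508% of the vector libraries and 0.0497% to 0.0516% of those labelled nPD-L1.

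**Figure D3:**
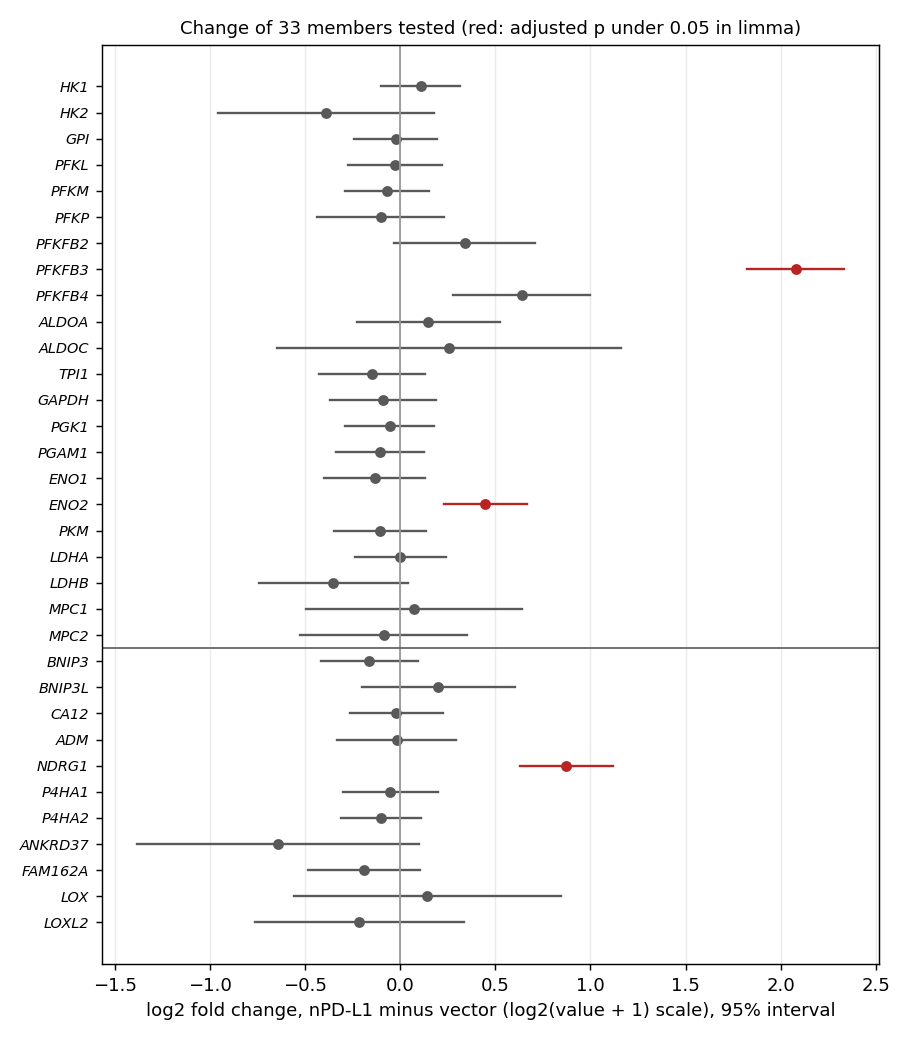
Log2 fold change, nPD-L1 minus vector, on the log2(scaled reads + 1) scale (horizontal axis) of the 33 members tested, with points the limma estimate, lines its 95% interval, and red the 3 called genes; glycolysis genes stand above the line and hypoxia genes below it. PFKFB3 at 2.08, NDRG1 at 0.87 and ENO2 at 0.45 stand to the right of 0, and 21 of 33 estimates lie below 0.

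Over the 33 members, 12 estimates were above 0 and 21 below, with a median of -0.05 that ran from -0.10 to 0.01 over the alternatives, where the median of all genes tested was -0.02. The median was -0.04 for the 22 glycolysis genes and -0.05 for the 11 hypoxia genes. The groups did not overlap for 8 members: PFKFB3, PFKFB4, ENO2 and NDRG1 had every nPD-L1 library above (4 of 33, beside 12% of all genes tested), and HK2, PKM, LDHB and P4HA2 every one below (4 of 33, beside 8.54%). The 95% interval lay within 0.5 of 0 on the log2 scale for 18 members and within 1 for 29. The 30 members that were not called had adjusted p from 0.0531 to 0.997.

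The vector libraries also differed among themselves in the same order for many members. Vector replicate 2 held the highest of the 3 vector values for 24 of 33 members, 17 of 22 among glycolysis genes, where 40.9% of all genes tested were highest there. Vector replicate 3 was lowest for 19 of 33 members, against 35.4% of all genes. Within groups the median SD of the members was 0.14 on the log2 scale, and 0.20 over all genes tested. Without vector replicate 2, 5 members were called, ENO2, NDRG1, PFKFB2, PFKFB3 and PFKFB4. The calls over all genes rose in that refit too, to 793 higher and 244 lower, against 609 and 139 in the main fit.

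Other HIF target genes, outside the list, were counted next. Of 30 such genes tested, 8 rose and 3 fell (36.7% of them called, beside 4.96% of all genes tested), with a median log2 fold change of 0.13. This list too was written with results of these data known, so its share is a description and no independent evidence. The median ran from 0.02 to 0.15 over the alternatives, and leaving out vector replicate 3 gave 0.05, nPD-L1 replicate 2 gave 0.07. ANGPTL4, an inhibitor of lipoprotein lipase, had 359, 377 and 424 scaled reads in the vector libraries, against 4322, 2966 and 3049 in those labelled nPD-L1 (log2 fold change 3.13 ± 0.15, adjusted p = 7.27e-07). BHLHE40, a transcriptional repressor, had 2554, 2447 and 2700 against 10532, 12544 and 11625 (2.17 ± 0.10, adjusted p = 7.27e-07). The groups were far apart for both genes, with estimates above that of PFKFB3.

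VEGFA, the main angiogenic growth factor, had 1044, 787 and 1134 scaled reads in the vector libraries, against 2587, 2258 and 2340 in those labelled nPD-L1 (1.29 ± 0.14, adjusted p = 0.000230). The ephrin ligand EFNA1 (1.52 ± 0.15), the heme oxygenase HMOX1 (0.88 ± 0.15), the mTORC1 inhibitor DDIT4 (0.64 ± 0.12), the histone demethylase KDM3A (0.60 ± 0.10) and the ubiquitin ligase adaptor WSB1 (0.41 ± 0.10) also rose. On the 4 libraries with recovered reads KDM3A was not called by limma, edgeR or DESeq2 (adjusted p = 0.212, 0.201 and 0.197), over a range of 0.000629 to 0.212 in all alternatives. HMOX1 was not called there by limma (0.0657) or edgeR (0.0661), over a range of 2.92e-05 to 0.0661. DDIT4 and WSB1 were not called there by limma, edgeR or DESeq2. DDIT4 (adjusted p = 0.00941) was not called without vector replicate 1 (0.0652), nPD-L1 replicate 1 (0.0594) or nPD-L1 replicate 2 (0.0603), over a range of 0.000355 to 0.312. WSB1 (adjusted p = 0.0445) was called without vector replicate 2 but lost without vector replicate 1 (0.130), vector replicate 3 (0.0825), nPD-L1 replicate 1 (0.173), nPD-L1 replicate 2 (0.219) or nPD-L1 replicate 3 (0.104), over a range of 0.0187 to 0.715.

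The 3 that fell were PPP1R3C, a subunit that directs protein phosphatase 1 to glycogen (-1.77 ± 0.20, adjusted p = 0.000309), the secreted glycoprotein gene STC2 (-0.98 ± 0.19, adjusted p = 0.0118) and the growth factor binding protein gene IGFBP1 (-0.85 ± 0.19, adjusted p = 0.0273). STC2 was lost without vector replicate 1 (0.0740), nPD-L1 replicate 1 (0.0544) or nPD-L1 replicate 3 (0.0805), over a range of 6.96e-07 to 0.162. IGFBP1 was lost without vector replicate 3 (0.0526), nPD-L1 replicate 2 (0.0701) or nPD-L1 replicate 3 (0.115), over a range of 0.00139 to 0.115. Hypoxia targets thus went in both directions. On the 4 libraries with recovered reads limma and edgeR called neither STC2 nor IGFBP1.

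**Figure D4:**
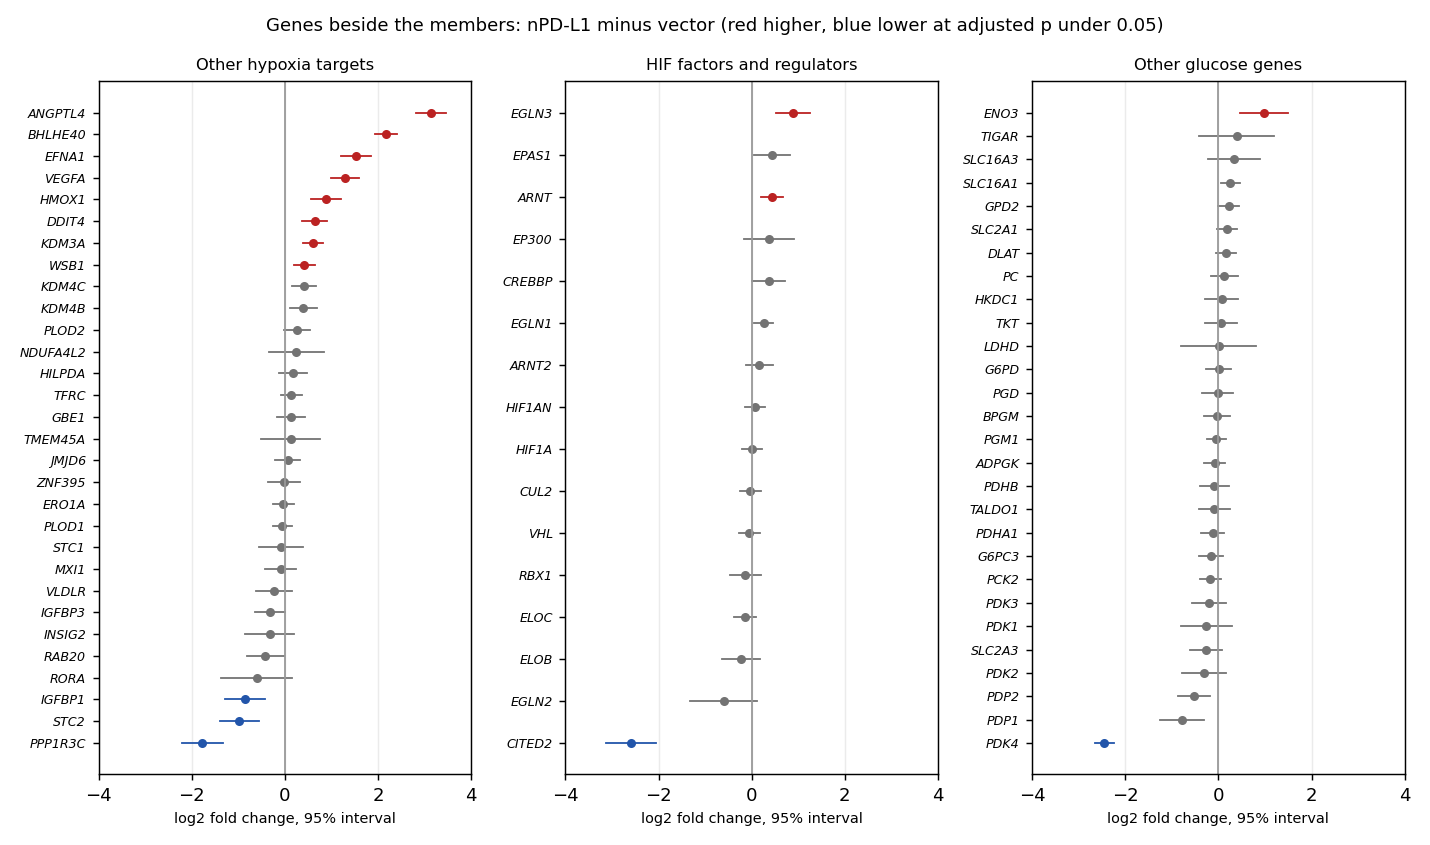
Log2 fold change, nPD-L1 minus vector, on the log2(scaled reads + 1) scale (horizontal axes) with 95% intervals, for 30 other hypoxia targets, 16 HIF factors and regulators and 28 other glucose genes, red called higher and blue called lower. ANGPTL4 at 3.13 and BHLHE40 at 2.17 lead the first panel, CITED2 at -2.59 is lowest in the second and PDK4 at -2.45 in the third.

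The HIF factors and their regulators were examined as the upstream side. Only their RNA was measured, and HIF protein level and activity were not tested. HIF1A, the oxygen-sensitive subunit that drives most glycolytic targets, had 5630, 6078 and 5770 scaled reads in the vector libraries, against 5420, 6125 and 6026 in those labelled nPD-L1. The groups overlapped fully (0.01 ± 0.10, adjusted p = 0.985), and the sign of its estimate flipped in 8 of 17 alternatives, upper-quartile scaling among them. EPAS1, which encodes HIF-2 alpha, had 2072, 1405 and 2432 against 2891, 2434 and 2485 (0.43 ± 0.18, adjusted p = 0.278). All nPD-L1 values of EPAS1 lay above all vector values, by 2.65 scaled reads at the closest. Without vector replicate 3 its adjusted p was 0.0450, over a range of 0.0431 to 0.840.

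Of the 16 genes tested, 2 rose and 1 fell (beside 4.96% of all genes called), with a median of 0.04 that ran from -0.01 to 0.07 over the alternatives. ARNT, the partner of both alpha subunits, had 691, 604 and 714 scaled reads against 888, 927 and 891 (0.43 ± 0.11, adjusted p = 0.0437). EGLN3, a prolyl hydroxylase that marks HIF for destruction and is itself a HIF target, had 325, 462 and 321 against 608, 772 and 653 (0.89 ± 0.16, adjusted p = 0.00820). Its paralog EGLN1, the main oxygen sensor, had 2413, 2490 and 2486 against 2791, 3019 and 3037, with no overlap and no call (0.26 ± 0.09, adjusted p = 0.185).

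CITED2, which competes with HIF for its coactivators, fell from 610, 821 and 414 scaled reads in the vector libraries to 118, 97.1 and 80.1 in those labelled nPD-L1 (-2.59 ± 0.24, adjusted p = 8.77e-05). The regulators therefore changed in both directions, with the largest change that of CITED2. ARNT was lost without vector replicate 1 (0.140), nPD-L1 replicate 1 (0.137), nPD-L1 replicate 2 (0.216) or nPD-L1 replicate 3 (0.158), over a range of 0.0182 to 0.756. EGLN3 was lost without vector replicate 1 (0.0558), over a range of 2.97e-05 to 0.202. On the 4 libraries with recovered reads limma, edgeR and DESeq2 called neither ARNT nor EGLN3 (EGLN3 adjusted p = 0.197, 0.202 and 0.191).

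Genes of glucose use beyond the list were counted in the same way. Of 28 tested, ENO3 rose and PDK4 fell (7.14% of them called, near the 4.96% of all genes tested). The median of the 28 was -0.04 and ran from -0.12 to 0.05 over the alternatives. PDK4, a kinase that shuts the pyruvate dehydrogenase complex and so keeps pyruvate from the citric acid cycle, had 7769, 7937 and 7827 scaled reads in the vector libraries, against 1490, 1320 and 1500 in those labelled nPD-L1. The fall was -2.45 ± 0.09 on the log2 scale (adjusted p = 2.34e-07) and was called in all 17 alternatives. PDK1, the kinase known as a HIF-1 target, had 142, 121 and 160 against 79.0, 154 and 132 (-0.26 ± 0.25, adjusted p = 0.709), a value that turned to 0.02 without nPD-L1 replicate 1. The glucose transporter gene SLC2A1 had 3446, 3358 and 3428 against 3644, 4177 and 3822, with no overlap and no call (0.18 ± 0.09, adjusted p = 0.437). PDP1 and PDP2, the phosphatases that reopen the complex and were picked after their values were seen, had -0.78 ± 0.22 and -0.53 ± 0.16 (adjusted p = 0.0733 and 0.106).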

How the data were processed

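RNA sequencing of 6 libraries (3 vector, 3 nPD-L1) was assigned to groups by the sample titles. The submitters' processing notes name CASAVA, HISAT2 2.0.5 and hg38, and the counter is not given in the sources used here. The library kit does not mark strand, so reads of overlapping antisense genes cannot be told apart. The values deposited by the authors are a signal, the reads on each gene after division by the size factor of its library. The deposited group means, log2 fold change, p-value and adjusted p-value of the authors' own comparison were not used. In 4 libraries (vector replicates 2 and 3, nPD-L1 replicates 1 and 3) whole reads were recovered, and 100% of values were whole multiples of 1 read (tolerance 0.1). In the other 2 the step lies too close to 1 for such reads to be accepted, so a count model was run only on 4 libraries, with edgeR 4.0.16 and DESeq2 1.42.0.

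limma 3.58.1 in R 4.3.3 was run on log2(value + 1), with trend and robust moderation, on 15076 of 27009 genes, those whose value reached 10 in 3 or more libraries. Fold changes on this scale understate changes of low genes. Tests were 2-sided with Benjamini-Hochberg adjustment over all genes tested. The fits were also run on simulated counts with known changes. Those counts were drawn independently for each gene, with the same dispersion for all genes. They therefore do not measure how the fits do on these libraries. Levels between genes are per kilobase of the deposited gene length. The gene IDs matched GENCODE v29 for 27009 of 27009 genes, and its exons gave the shared bases. Promoter windows are RefSeq, GRCh38.p14.

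The members and lists were chosen with earlier results of these data known, and some single-gene results are not reported here. Named genes were called members, the paralogs of called members, members whose groups did not overlap, the member highest per kilobase, the 3 largest uncalled changes, called genes of 3 further lists whose mean reached 100 scaled reads, and 9 fixed HIF and glucose genes. Alternatives were other pseudocounts, filters, scalings, moderation and thresholds, a block for the replicate number, refits leaving out each library, and fits on 4 libraries.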

Additional observations from a re-analysis of the deposited data

How the results depend on the processing

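Of 17 refits, all kept PFKFB3 called, 16 kept NDRG1 and 8 kept ENO2, and none called a member lower. For the 33 named genes, 483 of 561 refitted values kept their direction and their side of the threshold, 61 lost and 8 gained the call, and 9 changed sign. The sign of HIF1A, whose estimate is near 0, turned under upper-quartile scaling (-0.0451), in limma (-0.0514), edgeR (-0.0426) and DESeq2 (-0.0490) on 4 libraries, and in 4 of the 6 refits that left out a library (range -0.0271 to 0.0612). PDK1 ran from -0.45 to 0.0242 when a library was left out. Leaving out 1 library gave 1 to 4 glycolysis genes called higher, 0 to 1 other glucose genes higher and 1 to 3 lower, 1 to 4 other hypoxia targets lower, 0 to 3 HIF factors and regulators higher, and 350 to 793 of all genes higher and 77 to 244 lower, fewer libraries being part of the construction. Upper-quartile scaling called 1 glycolysis gene, 0 other glucose genes and 1 HIF regulator higher, and moved the median of all genes to -0.07. With no filter, 2 other glucose genes were lower and 1 HIF regulator higher. On 4 libraries limma, edgeR and DESeq2 each called 1 glycolysis gene and 0 other glucose genes and 0 HIF regulators higher, limma called 0 hypoxia members higher, limma and edgeR called 4 other hypoxia targets higher and 1 lower, DESeq2 called 5 of them higher, and of all genes limma called 254 higher and 53 lower, edgeR 264 and 61, and DESeq2 329 and 85. Requiring a log2 fold change of at least 1 left 1 glycolysis gene, 0 hypoxia members, 0 other glucose genes, 4 other hypoxia targets and 0 HIF regulators higher, 1 other hypoxia target lower, and 306 genes higher and 68 lower in all. At an unadjusted p under 0.05, 2 other glucose genes were higher and 3 lower, 5 other hypoxia targets lower, 5 HIF regulators higher, and 1436 genes higher and 710 lower in all. The cause of these moves was not tested.

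Same-numbered libraries of the 2 groups correlated at -0.01, 0.23 and 0.13 in their deviations from the group means. Vector replicates 2 and 3 matched the nPD-L1 library of their own number best, and vector replicate 1 did not. Whether the replicate numbers pair the libraries is not known. With the replicate number as a block, 927 genes were higher and 258 lower, 3 other glucose genes were lower, and PFKFB4 (adjusted p = 0.0164) and EPAS1 (0.0431) were called as well.

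PFKFB1 and CA9 held few reads in every library and were not tested. The ratios CA12/CA9 and PKM/PKLR were not run, since CA9 was too low and PKLR is not analysed here. The exact permutation test used for the 11 family ratios could not go below 0.1. Apart from HK2/HK1, PFKFB4/PFKFB3 and ENO2/ENO1, every ratio run overlapped between groups (exact permutation p from 0.2 to 0.9). Of the members tested, 29 of 33 were bounded to within 1 on the log2 scale.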
